A study of Homo sapiens with 6 samples.

Results

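The 10 genes described here encode the proteins that mark replication origins and prepare them for firing: the origin recognition complex subunits ORC1 to ORC6, the loading factors CDC6 and CDT1, the licensing inhibitor geminin (GMNN) and the helicase subunit CDC45. They were chosen by gene symbol, as all probe sets whose platform annotation gives 1 symbol that is among these 10, and 16 probe sets matched, of 54613 that are not controls. The genes are 10 of 19775 that the array measures through such probe sets. RNA came from KOPTK1, a human leukaemia line of the T-ALL type (acute lymphoblastic leukaemia of T cells) in long-standing use, grown in RPMI-1640 with fetal calf serum. The vehicle group (n = 3) and the PD0332991 group (n = 3, 1 µM) were both collected after 48 h, and the submitters call the replicates biological. PD0332991 (palbociclib) inhibits CDK4 and CDK6, the kinases that act with D-type cyclins on the retinoblastoma protein. All results are from this 1 line and this 1 time point, and each array is 1 RNA sample.

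As background, ORC binds origin DNA and, with CDC6 and CDT1, loads the MCM2 to MCM7 helicase onto it in G1, a step called licensing. Geminin accumulates from S phase on, binds CDT1 and blocks a new round of loading until mitosis is over. At firing, CDC45 and the GINS complex join the loaded helicase and make it active. ORC1, CDC6 and several other genes of this group are known targets of the E2F factors, which the retinoblastoma protein restrains.

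Sequences before the transcription start are shown for 6 of the genes, because the genes did not all move together, and they let the letters upstream of a gene that fell be read beside those of one that did not pass. They are from the RefSeq promoter table (GRCh38.p14), which holds 14 windows for the 10 genes, each 250 bases before to 50 after a start. The 120 bases just before the start are printed 5′ to 3′ on the strand of the gene. Capitals mark exact matches, on either strand, to the E2F-type letters TTTCCCGC or TTTCGCGC or TTTGCCGC or TTTGGCGC, or to a wider set of 7 letters that was added after the windows had been read (TTCCCGC or TTCCCGG or TTCGCGC or TTCGCGG or TTGCCGC or TTGCCGG or TTGGCGC or TTGGCGG). Every 8-letter word contains a word of the wider set.
ORC1 (chr1:52404424-52404543, minus strand): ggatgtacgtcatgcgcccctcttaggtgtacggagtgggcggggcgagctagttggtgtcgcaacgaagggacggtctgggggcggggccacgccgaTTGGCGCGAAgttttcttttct
CDC6 (chr17:40287759-40287878, plus strand): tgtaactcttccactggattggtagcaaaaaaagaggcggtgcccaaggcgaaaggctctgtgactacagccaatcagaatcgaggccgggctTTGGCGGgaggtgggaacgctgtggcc
CDT1 (chr16:88803669-88803788, plus strand): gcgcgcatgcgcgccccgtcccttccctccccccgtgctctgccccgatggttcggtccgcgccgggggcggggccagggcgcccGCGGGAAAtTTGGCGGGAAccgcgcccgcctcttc
ORC3 (chr6:87590015-87590134, plus strand): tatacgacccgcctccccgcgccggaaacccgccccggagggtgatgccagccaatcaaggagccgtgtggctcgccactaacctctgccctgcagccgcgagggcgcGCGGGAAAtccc
ORC5 (chr7:104208014-104208133, minus strand): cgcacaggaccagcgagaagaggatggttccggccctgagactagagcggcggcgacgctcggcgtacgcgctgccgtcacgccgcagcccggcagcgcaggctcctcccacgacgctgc
ORC6 (chr16:46689539-46689658, plus strand): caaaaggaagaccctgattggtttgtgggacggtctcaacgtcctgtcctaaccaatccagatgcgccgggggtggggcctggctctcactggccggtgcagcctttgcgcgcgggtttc

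The 8-letter words lay in 4 of the 14 windows, of the genes CDC6, CDT1, GMNN and ORC3, and in 3.3% of all 35116 windows of the table. The wider set lay in 7 of the 14 windows, of these 4 genes with ORC1 and CDC45, and in 23.7% of all windows. Because that set was added after the windows had been read, its share among the members is a description and no test of enrichment. Positions are counted from the start as 0. In ORC1 the overlapping matches ran from −22 to −13. CDT1 had 3 matches of the wider set between −35 and −17. CDC6 had a match at −27 to −21 and another after the start at 7 to 14. The latter is its 8-letter word and lies outside the printed bases. CDC45 had a match at −24 to −18 in 1 of its windows and none in the others. GMNN had a match at −80 to −73 in one of its windows and at −34 to −28 in the other. None of the windows of ORC2, ORC4, ORC5 or ORC6 held a word of either set. The letters TTTGAA and TTCGAA, of the type of the cell cycle genes homology region, were in none of the 14 windows and in 16.4% of all windows. A match describes letters in a window, and binding was not measured here.

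With PD0332991, 7 of the 10 genes fell and none rose, and the genes were far from uniform. CDC45, CDT1, ORC1 and CDC6 fell to between 5.76-fold and 7.06-fold below vehicle, GMNN fell 3.56-fold, ORC6 1.63-fold and ORC3 1.33-fold, while ORC2, ORC4 and ORC5 did not pass. A gene passed where limma gave an adjusted p under 0.05 over all 19775 genes, and the brightest probe set over the 6 arrays stood for its gene. Fold changes are on the log2(intensity + 16) scale. Of all genes tested, 13.6% were lower by this rule and 15.6% higher. The median log2 fold change was −1.27 over the 10 members and 0.01 over all genes. Before adjustment, at a p under 0.05, the members also counted 7 lower and none higher. At the level of probe sets, 9 of 16 fell and none rose, against 10.2% lower and 10.7% higher among all probe sets. In all 7 genes that fell, the PD0332991 arrays lay below every vehicle array, as they did for 20.0% of all genes. In such bulk samples, fewer cells in a cycle phase and less RNA per cell cannot be told apart.

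**Figure D1:**
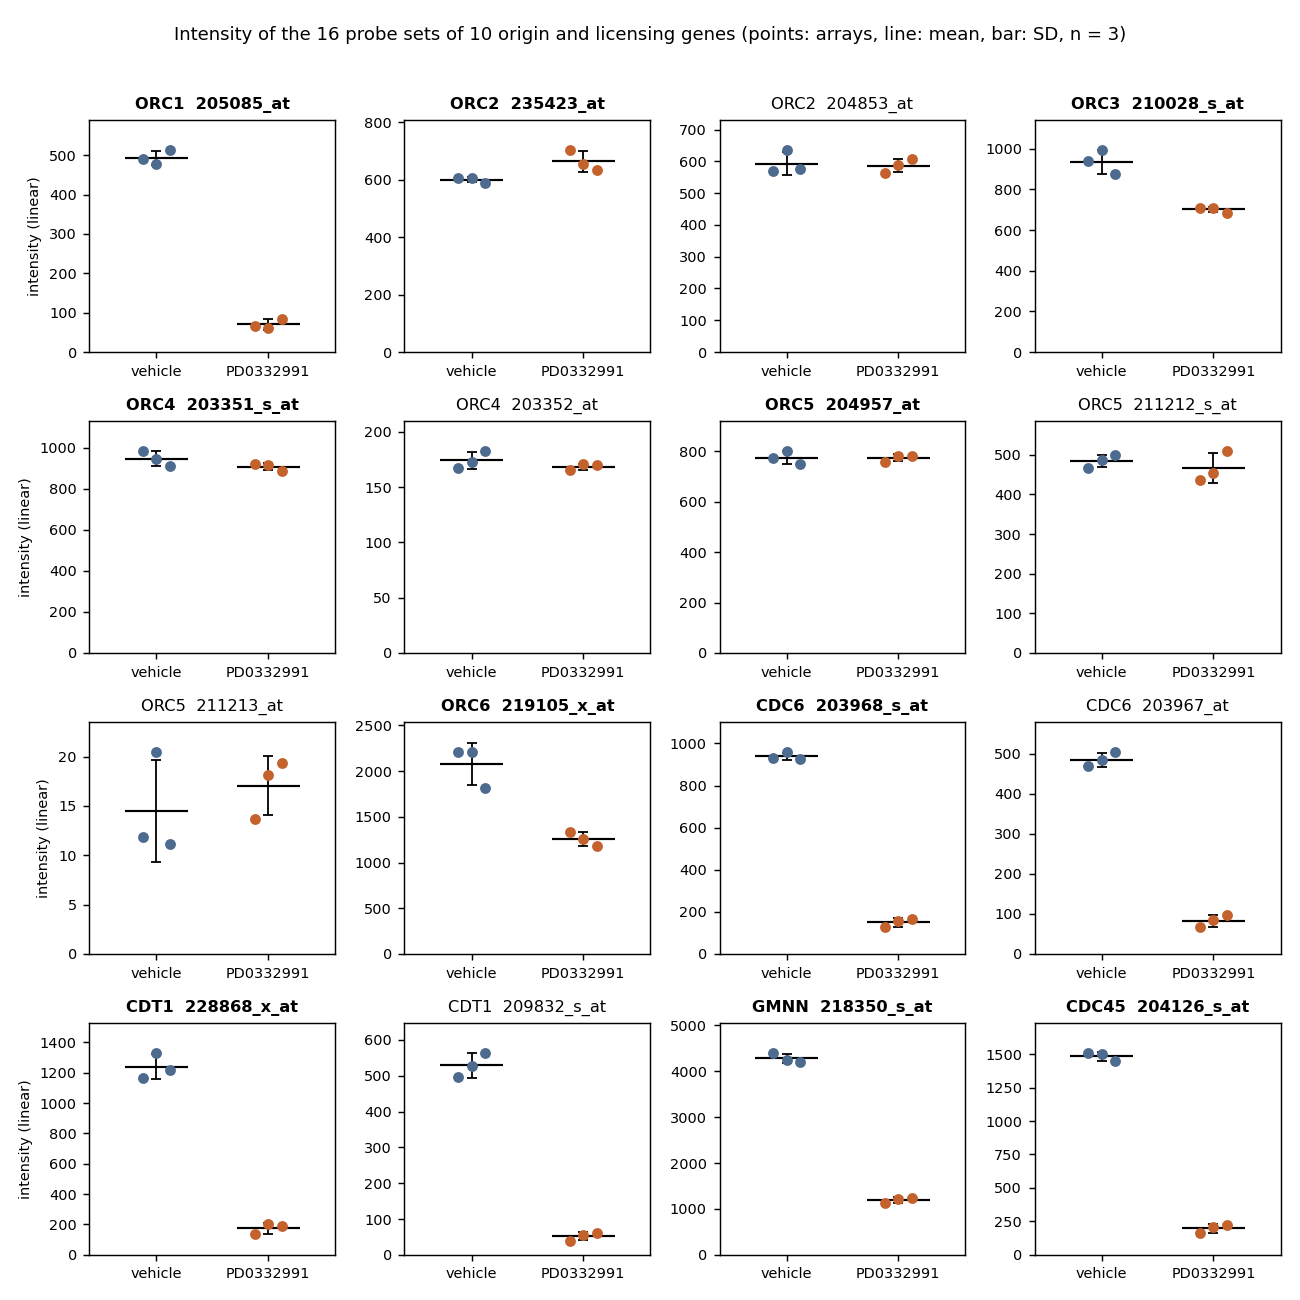
Linear intensity (y axis, starting at 0) of each of the 16 probe sets in the 3 vehicle and the 3 PD0332991 arrays, with the mean as a line and the SD as a bar. Bold titles mark the probe set that stands for its gene, and the probe sets of ORC1, CDC6, CDT1, GMNN and CDC45 show the widest gaps between groups.

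ORC1 is the largest ORC subunit, an ATPase related to CDC6 whose level cycles in human cells. Its 1 probe set, 205085_at, read 489, 477 and 512 with vehicle and 65.2, 59.8 and 84.7 with PD0332991. Every treated array was thus far below the lowest vehicle array. The log2 fold change was −2.58 (SE 0.11, 95% interval −2.85 to −2.30, limma adjusted p = 4.6e-05), which placed ORC1 at rank 96 from the lowest of all genes. ORC6, the smallest subunit and the one least like the others in sequence, was measured by 219105_x_at, a probe set of a kind that can match several transcripts. It read 2205, 2207 and 1811 with vehicle and 1336, 1258 and 1184 with PD0332991. The groups did not overlap, although vehicle replicate 3 lay closer to the treated arrays than the other vehicle arrays did. Its log2 fold change was −0.71 (SE 0.10, 95% interval −0.95 to −0.47, limma adjusted p = 0.0031).

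The core subunits ORC2 to ORC5 hold the complex together, and among them ORC3 fell. Its 1 probe set, 210028_s_at, read 942, 993 and 875 with vehicle and 711, 708 and 686 with PD0332991. The treated arrays lay close together and below all vehicle arrays. Its log2 fold change was −0.41 (SE 0.07, 95% interval −0.57 to −0.25, limma adjusted p = 0.0054).

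ORC4 and ORC5, which are ATPase-type subunits, showed overlapping groups on every probe set. The brighter ORC4 probe set, 203351_s_at, read 984, 946 and 911 with vehicle and 920, 914 and 888 with PD0332991, with a log2 fold change of −0.06 (95% interval −0.20 to 0.08). The dimmer one, 203352_at, was at −0.04, with means of 174 and 169. For ORC5, 204957_at read 774, 800 and 748 with vehicle and 759, 782 and 782 with PD0332991, a log2 fold change of 0.0014 (95% interval −0.13 to 0.13). A second ORC5 probe set, 211212_s_at, was at −0.05. The third, 211213_at, read 11.1 to 20.5 over all 6 arrays, near the pseudocount of 16, and the files give no detection call for it. The intervals of the bright probe sets bound any change of ORC4 or ORC5 at this precision, and do not show that there was none.

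ORC2, the partner of ORC3 in the core, had 2 probe sets of similar brightness, and neither passed. They differed in whether the groups overlapped. On 235423_at the arrays read 604, 605 and 588 with vehicle and 702, 656 and 632 with PD0332991, so that every treated array was above every vehicle array. The log2 fold change was 0.14 (95% interval −0.01 to 0.29) and did not pass in limma (adjusted p = 0.142). Over the alternatives tried, the limma adjusted p of the gene ORC2 ran from 0.0501, among brighter genes only, to 0.457, with the mean of its 2 probe sets. Where 235423_at alone stood for the gene, the highest was 0.29, with median centring. The other probe set, 204853_at, read 569, 635 and 575 with vehicle and 565, 589 and 606 with PD0332991, with overlapping groups and a log2 fold change of −0.01.

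The level of ORC1 and ORC6 relative to ORC2 to ORC5 was lower on every PD0332991 array than on any vehicle array. The mean log2(intensity + 16) of ORC1 and ORC6 minus that of ORC2 to ORC5 was 0.36, 0.32 and 0.32 with vehicle and −1.24, −1.32 and −1.12 with PD0332991. The groups lay far apart compared with their SDs of 0.02 and 0.10, and the difference between them was −1.56. This score is given without a p, because its genes were chosen with results known. Only its change can be read, since levels of different probe sets cannot be set against each other. The 2 genes contributed unequally: ORC1 alone against ORC2 to ORC5 changed by −2.50 and ORC6 alone by −0.63. The mean of ORC2 to ORC5 itself changed by −0.08, from 9.67 ± 0.05 to 9.59 ± 0.03 (SD, n = 3 each). ORC3 fell and the other 3 core subunits did not pass.

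**Figure D2:**
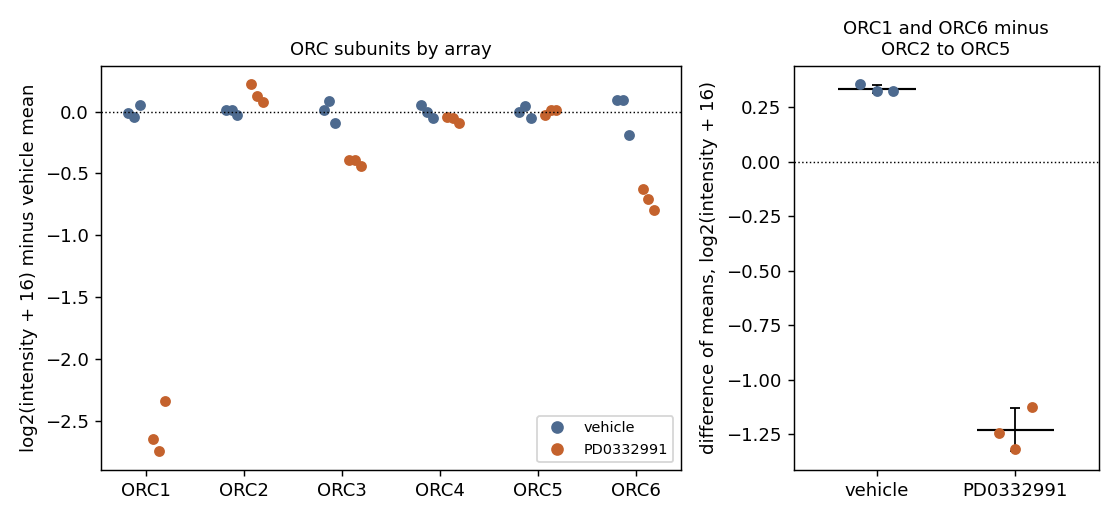
Left, log2(intensity + 16) of the 6 ORC subunits in each array, minus the vehicle mean of the same gene. Right, the mean of ORC1 and ORC6 minus the mean of ORC2 to ORC5 in each array, with the group mean as a line and the SD as a bar (n = 3). ORC1 lies lowest, ORC6 and ORC3 lie below 0, and ORC2, ORC4 and ORC5 stay near it.

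The loaders CDC6 and CDT1 both fell on both of their probe sets. CDC6 is the ATPase that joins ORC at the origin, and its brighter probe set, 203968_s_at, read 933, 959 and 926 with vehicle and 126, 158 and 168 with PD0332991. The log2 fold change was −2.53 (SE 0.11, limma adjusted p = 4.0e-05). The dimmer probe set, 203967_at, read 469, 483 and 504 with vehicle and 67.2, 85.8 and 96.2 with PD0332991, at a log2 fold change of −2.35. On both probe sets the groups were far apart, with PD0332991 replicate 1 the lowest array.

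CDT1 brings the MCM complex to ORC and CDC6. On 228868_x_at it read 1168, 1328 and 1220 with vehicle and 136, 204 and 187 with PD0332991. The groups were far apart, at a log2 fold change of −2.73 (SE 0.15, adjusted p = 9.1e-05 in limma). On 209832_s_at it read 496, 527 and 563 with vehicle and 38.9, 56.7 and 60.0 with PD0332991, where the log2 fold change was −3.02. These treated values are close enough to the pseudocount for it to matter: the ratio of the group means on the linear scale was 10.2, and the fold on the log2(intensity + 16) scale was 8.09. Both CDT1 probe sets are of the kinds that can match several transcripts.

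Geminin, the inhibitor of CDT1, fell as well. Its 1 probe set, 218350_s_at, read 4395, 4251 and 4200 with vehicle and 1125, 1207 and 1248 with PD0332991. The arrays of each group lay close together, and the log2 fold change of −1.83 had the narrowest interval of the 5 members that fell by more than 1 on the log2 scale (SE 0.06, 95% interval −1.98 to −1.68, limma adjusted p = 2.4e-05). CDC45, which turns the loaded helicase into the active one, had the largest decrease of the 10 genes on the probe sets that stand for them. With the mean of a gene's probe sets, CDT1 came first, at −2.87 against −2.82. On 204126_s_at CDC45 read 1507, 1500 and 1445 with vehicle and 163, 207 and 225 with PD0332991. The log2 fold change was −2.82 (SE 0.12, 95% interval −3.10 to −2.54, limma adjusted p = 3.8e-05), at rank 72 from the lowest of all genes.

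**Figure D3:**
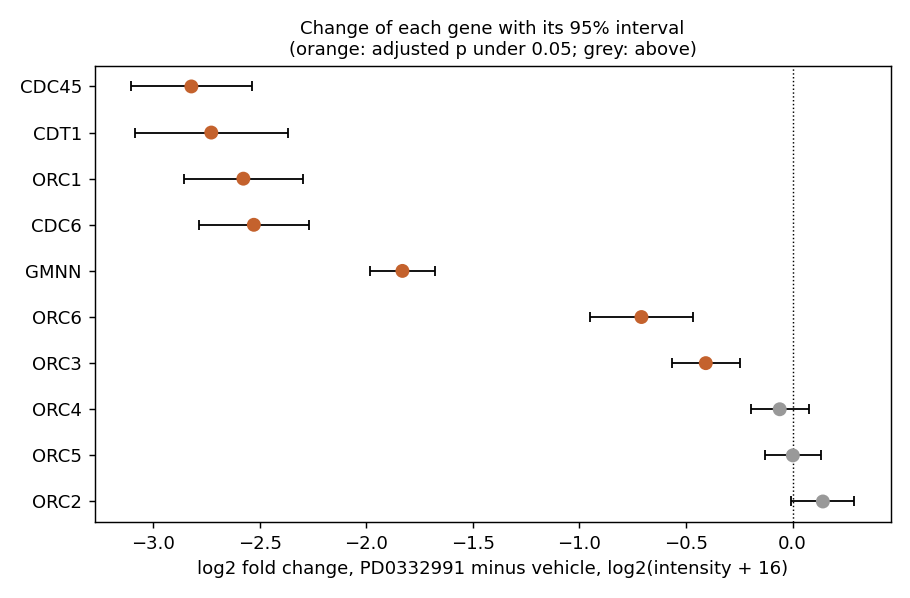
Log2 fold change (x axis, PD0332991 minus vehicle) of each of the 10 genes with its 95% interval from limma, in the order of change. The intervals of CDC45, CDT1, ORC1 and CDC6 overlap one another, GMNN stands apart at −1.83, and those of ORC4, ORC5 and ORC2 include 0.

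The order of the changes had steps where neighbouring genes could not be separated. The log2 ratio of 2 genes was taken within each array for each pair of neighbours in the order. For CDC45 against CDT1, CDT1 against ORC1 and ORC1 against CDC6 the ratios overlapped between groups, with differences of −0.09, −0.15 and −0.05. Of all 6 pairs among these 4 genes, 5 overlapped. The exception was CDC45 against CDC6, whose ratio went from 0.65 ± 0.03 to 0.36 ± 0.03 (SD, n = 3 each), a difference of −0.29. Between CDC6 and GMNN the ratio went from −2.17 ± 0.04 to −2.87 ± 0.13 (SD, n = 3 each) with no overlap, a difference of −0.70. The next steps, from GMNN to ORC6 (−1.12), ORC6 to ORC3 (−0.30) and ORC3 to ORC4 (−0.35), also had no overlap. From ORC4 to ORC5 the ratios overlapped. From ORC5 to ORC2 they did not, with a difference of −0.14 on the ORC2 probe set whose groups were apart. A two-sided exact permutation test of 3 against 3 arrays cannot give a p below 0.1, so no p is given for these ratios.

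PD0332991 replicate 1 was the lowest treated array for 4 of the 7 genes that fell, namely CDC6, CDT1, GMNN and CDC45. It was the lowest for 26 of the 37 genes that fell in the wider list of licensing and firing genes (70.3%), and for 46.7% of all genes that fell. The part of this array in those decreases was not tested beyond leaving it out. Without that array the log2 fold change of CDC45 was −2.70 and that of CDT1 −2.57, and all 7 genes still passed with any 1 array left out.

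The other genes of licensing and firing fell as well in most cases. They are a list of 45 chosen by function, with earlier results of these data known. Of the 44 measured, 37 fell, 1 rose and 6 did not pass. Over all genes, 13.6% were lower and 15.6% higher by the same rule. The median change of the listed genes was −1.18 on the log2 scale, against 0.01 over all genes. All 6 subunits of the MCM2 to MCM7 helicase, which ORC, CDC6 and CDT1 load, fell, by 0.64 to 1.22 on the log2 scale. The largest decreases among them were in MCM3, with a log2 fold change of −1.22, and MCM4, with −1.17. MCM4 has a very dim probe set that did not pass, at 0.18, and 3 others at −1.58 to −1.90. All 4 genes under the list's label of MCM partners fell. The label was not tested here, and MCM8 and MCM9 are not taken as partners of the MCM2 to MCM7 helicase. MCM10, which acts at firing, went from 1008, 928 and 927 with vehicle to 88.9, 107 and 120 with PD0332991. It was 8.02-fold lower on the log2(intensity + 16) scale, where the ratio of the linear means is 9.04. MCM8 was at −1.79 on its bright probe set, and its dim one at −0.44 did not pass.

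Of 16 genes of helicase activation and firing, 15 fell. GINS2, a subunit of the GINS complex that joins CDC45, was at −2.42 and fell on 2 of its 3 probe sets, while a dim one was at −0.20. That dim probe set stood for the gene once the _x_at and _s_at kinds were dropped, and GINS2 then did not pass. The helicase gene RECQL4 was at −2.25. TICRR, which encodes treslin and helps CDC45 to load, did not pass on its brighter probe set, at −0.06, with means of 324 and 312. Its other probe set fell from a mean of 379 to 64.7, a log2 fold change of −2.29, so the 2 probe sets of TICRR disagree.

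Of the 3 genes measured under the list's label of chromatin partners of ORC, the histone H4 methyltransferase gene KMT5A fell, with −0.76. The acetyltransferase gene KAT7 and BAHD1 did not pass, each at −0.04. That label was not tested here, and BAHD1 is not taken as an ORC partner. LRWD1 was not analysed here. Of 15 genes that control the turnover or activity of CDT1, CDC6 and geminin, 11 fell and 1 rose. CCNF, the F-box protein cyclin F, had means of 530 with vehicle (SD 27.9) and 53.8 with PD0332991 (SD 8.80), 7.85-fold lower. CCNA2, which encodes cyclin A2, was at −2.84. CUL4A, the scaffold of the ubiquitin ligase that degrades CDT1 in S phase, was the 1 gene that rose. It read 2388, 2374 and 2350 with vehicle and 4162, 3805 and 3660 with PD0332991, 0.70 higher on the log2 scale (SE 0.07, adjusted p = 6.4e-04 in limma). Of its 4 probe sets 3 rose, and the fourth was at 0.22. Its paralogue CUL4B was at 0.08 and did not pass. DTL, the substrate receptor that brings CDT1 to this ligase, fell by 2.48 on the log2 scale, so parts of 1 ligase moved in opposite directions. FZR1, named after its values were seen, passed narrowly at −0.41 (limma adjusted p = 0.043), and lost its call when any vehicle array was dropped, or when PD0332991 replicate 2 or 3 was, so that 36 genes of the list then fell. It also lost its call with the replicate number as a block, with a pseudocount of 1 and with the mean of its probe sets. None of its 4 probe sets passed in the test over all probe sets, with log2 fold changes from −0.41 to 0.05.

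**Figure D4:**
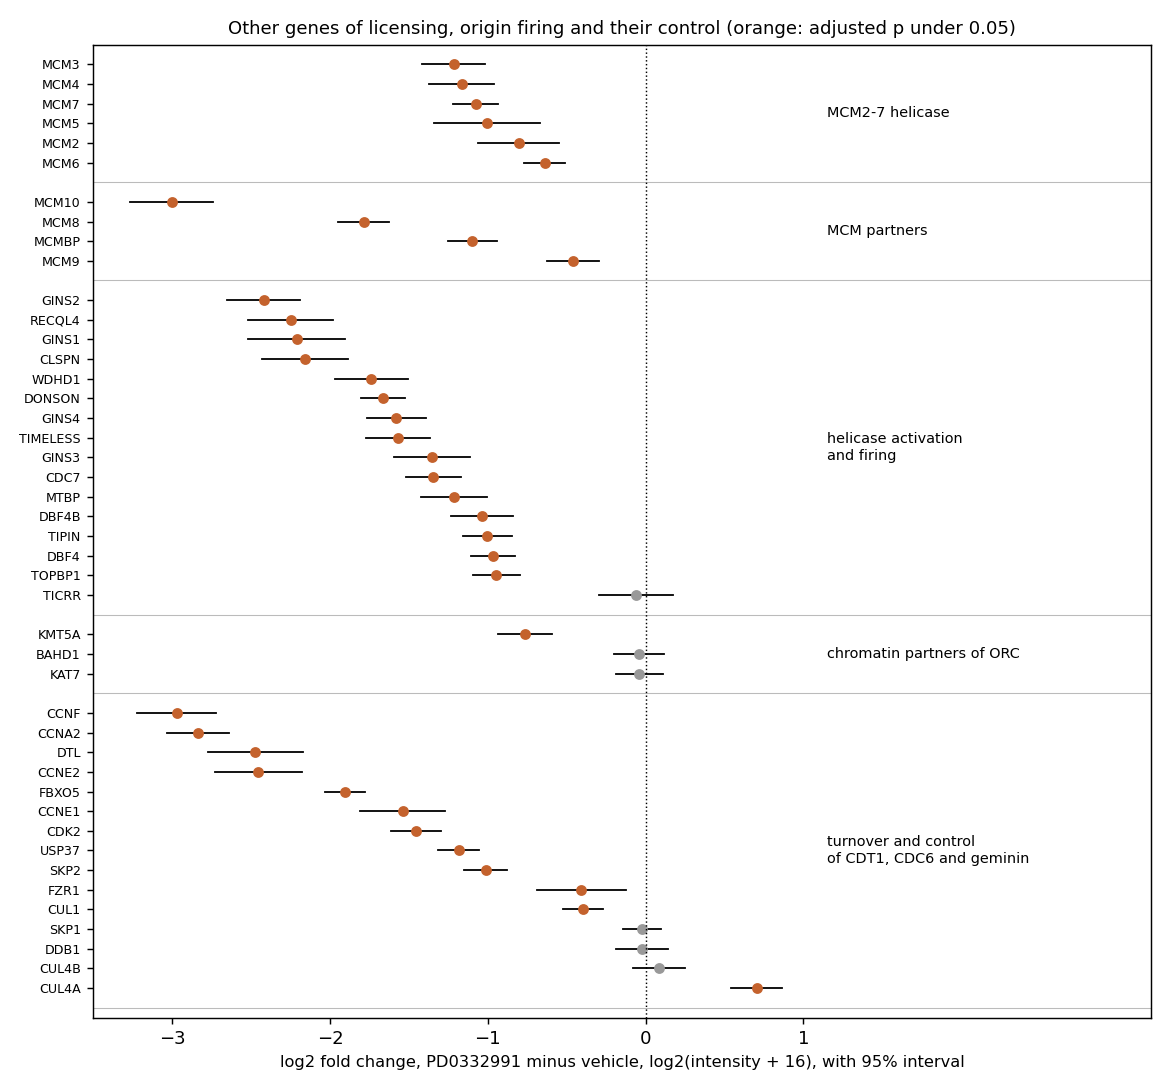
Log2 fold change (x axis, PD0332991 minus vehicle) with its 95% interval for the 44 measured genes of the wider list, grouped by role and ordered by change within each role. Orange points passed at an adjusted p under 0.05, grey points did not, and CUL4A is the 1 orange point above 0.

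The genes nearest to 3 of the members in their pattern over the 6 arrays were found by the distance between log2 values, each gene centred on its own mean, among 10222 brighter genes. Nearest to CDC6 were CCNE2 (log2 fold change −2.46), DTL and GGH (−2.59). Nearest to ORC1 were GPSM2 (−2.56), NCAPG2 (−2.47) and PSRC1 (−2.61). Nearest to GMNN were RFC4 (−1.80), C9orf40 (−1.81) and MCM8. With 2 groups of 3 arrays, a near pattern is mostly a like size of change, and it is given as a description.

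The cell type of the label was checked against marker genes. All 9 T cell markers were measured, and their summed intensity was 22956 to 25271 with vehicle and 28934 to 30222 with PD0332991. CD3E, CD3G, CD247, CD2, LCK and CD1A rose, most of all CD1A, at 1.04 on the log2 scale. CD3D, CD7 and CD5 did not pass. Sums of markers of myeloid cells (5 genes), epithelium (4), fibroblasts (4) and erythroid cells (1 of 3, HBB) lay between 143 and 261. The myeloid sum was 246 to 261 with vehicle and 215 to 230 with PD0332991. Among its genes MPO fell, at −0.26 on the log2 scale (limma adjusted p = 0.023), and the others did not pass. The B cell sum (4 of 5 genes) went from 366 to 431 with vehicle to 594 to 760 with PD0332991, and CD79A made the difference, at 250 to 305 and 486 to 641, while MS4A1, PAX5 and CD79B lay at 28.6 to 55.4 on all arrays. The part of these shifts in the results above was not tested. The median intensity of the arrays was 49.1 to 54.3.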

How the data were processed

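RNA of 3 vehicle and 3 PD0332991 cultures was measured on biotin-labelled one-colour Affymetrix arrays, per the labels. The authors deposited probe set intensity values, 54675 per array, already summarised. They were taken as linear from their range, 0.56 to 16362. Their summarisation and scaling are not given in the sources used here. No further normalization was applied. The 62 control probe sets were left out, and 16 was added before log2, which understates the changes of dim probe sets. Probe sets were named by the platform annotation of 2016, with symbols updated by gene ID. It gave 1 symbol for 41091 probe sets, several for 1801 and none for 11721. The brightest probe set over the 6 arrays stood for its gene.

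The test between groups was limma's (version 3.58.1, R 4.3.3; lmFit, then eBayes; two-sided) over all genes, and separately over all probe sets, with Benjamini-Hochberg adjustment over each. Every adjusted p is from limma. The code was tested on simulated data. Named genes were the 10 members, and per role of the wider list the 2 largest changes that passed and up to 2 that did not pass or went against the majority, and the 3 genes nearest to ORC1, CDC6 and GMNN. The members and lists were chosen with earlier results of these data known. Alternatives were quantile normalization, median centring, dropping 1 array at a time, a block for the replicate number, pseudocounts of 1 and 64, brighter genes only, eBayes with trend or robust, the mean of probe sets, and probe sets ending in _x_at or _s_at left out. Figures were drawn with matplotlib 3.10.9.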

Additional observations from a re-analysis of the deposited data

How the results depend on the processing

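The 7 genes that fell passed in the same direction under every alternative that measured them, and ORC2, ORC4 and ORC5 passed under none. With the _x_at and _s_at probe sets dropped, only 5 of the 10 genes are measured, and the count that fell is 2 (ORC1 and CDC6). ORC3, ORC6, CDT1, GMNN and CDC45 have no probe set of another kind. CDT1 fell on both of its probe sets, and each of the other 4 genes rests on 1. The change of ORC1 and ORC6 minus that of ORC2 to ORC5 was −1.68 with a pseudocount of 1 and −1.30 with 64, and −1.61 to −1.52 with 1 array left out. ORC5 (204957_at) was at −0.0099 with median centring and at −0.0227 to 0.0250 with 1 array left out. The ORC2 probe set 204853_at was at 0.0316 with quantile normalization and at −0.0411 to 0.0363 with 1 array left out. With the replicate number as a block, 7 of the 10 genes and 9 of the 16 probe sets fell and 36 of the wider list. Deviations of same-numbered arrays correlated at 0.016, 0.067 and 0.11, so the numbers were not taken as pairs, and not every array correlated best with its own number. Detection calls do not come with the values, so whether dim probe sets such as 211213_at lie above background is unknown.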
